A study of Homo sapiens with 18 samples.

Results

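The arrays described here compare 22Rv1 cells labelled as carrying a short hairpin RNA (shRNA) against ONECUT2 with 22Rv1 cells labelled as carrying a scramble shRNA. They are 6 of the 18 arrays of the series, 3 in each group. The arrays were picked by their labels, and the comparison was chosen with earlier results of these data known. All 19775 genes that the array names were considered. 22Rv1 is a human prostate carcinoma line that came from a xenograft. Both were stable lines: lentivirus made from pLKO plasmids was added with 5 µg/mL polybrene, and transduced cells were kept on 5 µg/mL puromycin, so the groups share vector type, virus and drug. The protocol lists 2 shRNA clones against ONECUT2 besides the non-target plasmid. Titles in the first group hold the number 43, with which the identifier of 1 clone ends, while titles in the second hold a number that ends no clone identifier. 22Rv1 cells with an ONECUT2 overexpression construct and 22Rv1 control cells, whose treatment is given as vehicle, were used for context, with 3 arrays each. The overexpression cells are also listed with 5 µg/mL polybrene and 5 µg/mL puromycin, and the control cells with neither. Every comparison against the 22Rv1 control therefore also differs in these listed treatments. The remaining arrays are of LNCaP cells, a second prostate carcinoma line, 3 of control cells and 3 of cells with an ONECUT2 overexpression construct. The latter are also listed with 5 µg/mL polybrene and 5 µg/mL puromycin. These LNCaP arrays entered the main fit and its estimate of the spread. No label states whether replicate arrays came from different cultures, so p-values refer to array-to-array spread, which may be technical. No batch is named.

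ONECUT2 is a transcription factor with a cut domain and a homeodomain. Its family, which also holds ONECUT1 and ONECUT3, is known for its part in the development of liver, pancreas and neurons, where it acts in a network with the hepatocyte nuclear factors. In prostate carcinoma ONECUT2 has been described as a factor that opposes androgen receptor signalling. An shRNA is processed to a small interfering RNA that guides the degradation of the matching transcript, so the target's own transcript is the check of the label.

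RNA was measured on Affymetrix U133 Plus 2.0 arrays, whose probe sets lie mostly near the 3′ end of transcripts, and every value below is a log2 GCRMA value unless a fold is named. The 6 arrays had medians of 3.27 to 3.31 over all probe sets, and 38.8% to 39.3% of probe sets read over 4, the value used as the filter on low signal. The number of arrays limits the precision. Arrays of the same group correlated at 0.996 to 0.997 and arrays of different groups at 0.988 to 0.991 (Pearson, across probe sets, which are not independent replicates). Identity of the line was read from genes that separate it from LNCaP: 79 genes over 9 in 22Rv1 control cells and under 4 in LNCaP control cells all stayed over 4. Of 12 genes with the reverse pattern, 1 to 3 read over 4 on arrays labelled ONECUT2 shRNA and 2 on each array labelled scramble, with medians of 3.11 to 3.46 and 2.92 to 3.22 over the 12, against 9.83 in LNCaP control cells. All 6 luminal prostate markers read over 4 on every array, with a summed level of 13.73 to 13.79 on arrays labelled ONECUT2 shRNA and 13.77 to 13.84 on arrays labelled scramble. The 2 basal, 3 leukocyte and 3 endothelial markers read under 4 on every array of both groups. Of 5 stromal markers, COL1A1 read over 4 on all arrays and LUM over 4 on all arrays labelled scramble. On arrays labelled ONECUT2 shRNA, LUM read 4.15, 4.12 and 3.84. DCN read 3.76, 3.44 and 4.34 there, and 3.70, 3.72 and 3.57 on arrays labelled scramble. In bulk RNA, fewer cells of a type and less RNA per cell cannot be told apart.

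ONECUT2 was higher, not lower, on the arrays labelled ONECUT2 shRNA. The probe set with the highest mean, 239911_at, read 8.46, 9.0 and 9.12 on those arrays, against 6.63, 6.71 and 7.08 on arrays labelled scramble and 8.23, 8.15 and 8.25 in 22Rv1 control cells. The arrays did not overlap. The difference of the labelled ONECUT2 shRNA arrays over the labelled scramble arrays was 2.05 ± 0.16 (SE, n = 3 each), a 4.15-fold higher level (limma, adjusted p = 7.33e-08). Against the 22Rv1 control the same probe set was 0.65 higher on arrays labelled ONECUT2 shRNA (adjusted p = 0.0265) and fell by 1.41 on arrays labelled scramble (adjusted p = 8.84e-06). Cells with the overexpression construct read 8.59, 8.81 and 8.85.

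Both other ONECUT2 probe sets with signal pointed the same way. Probe set 230271_at read 8.29, 8.69 and 8.73 on arrays labelled ONECUT2 shRNA, against 6.58, 6.71 and 6.51 on arrays labelled scramble, a difference of 1.97 ± 0.15 (SE; adjusted p = 7.19e-08 over probe sets). Probe set 233446_at read 5.47, 5.22 and 5.63 against 3.43, 4.22 and 3.46, a difference of 1.74 ± 0.24 (SE; adjusted p = 5.47e-05). The last probe sets, 207676_at and 233441_at, read between 2.64 and 3.06 on arrays labelled ONECUT2 shRNA and between 2.46 and 2.94 on arrays labelled scramble, under the filter value in both. ONECUT1 read 2.82, 2.67 and 2.99 against 2.68, 2.75 and 2.88, and ONECUT3 read 3.44, 3.39 and 3.62 against 3.45, 3.58 and 3.47, so neither had a signal that could be compared. The transcript level therefore goes against the label, and every direction below is that of the arrays as labelled, not of a loss of ONECUT2. These files cannot settle whether the labels of the 2 groups were exchanged, which would turn the sign of every difference between them.

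**Figure D1:**
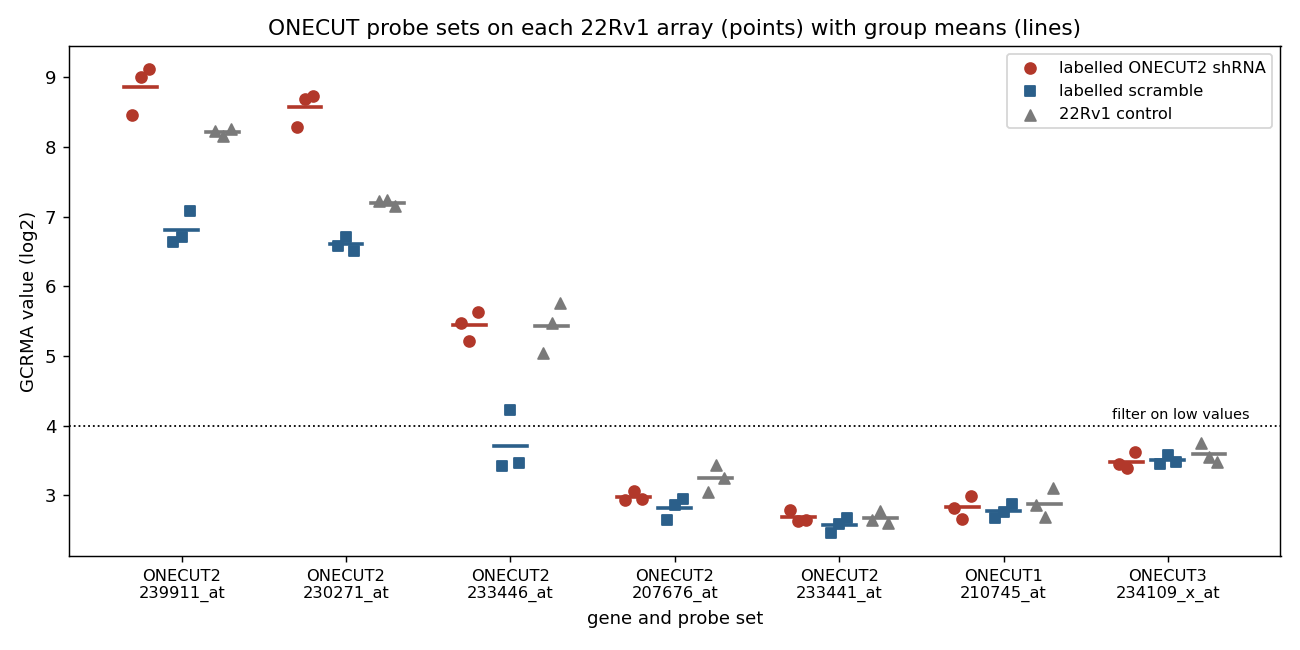
GCRMA values (log2, vertical axis) of each ONECUT probe set (horizontal axis) on the 3 arrays labelled ONECUT2 shRNA, the 3 labelled scramble and the 3 of 22Rv1 control cells; points are arrays and lines are group means. The 3 brightest ONECUT2 probe sets are higher on every array labelled ONECUT2 shRNA than on any labelled scramble, while ONECUT1 and ONECUT3 lie under the filter value of 4.

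Among the related cut homeobox genes, CUX1, a broadly expressed regulator, read 10.35, 10.31 and 10.48 on arrays labelled ONECUT2 shRNA and 9.16, 9.64 and 9.17 on arrays labelled scramble (difference 1.06 ± 0.16 SE, adjusted p = 0.000107). SATB1, a chromatin organizer, read 3.17, 2.73 and 2.80 against 4.13, 4.28 and 3.92, close to or under the filter value throughout. It was at least 1.08-fold lower on arrays labelled ONECUT2 shRNA (adjusted p = 1.00e-04).

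The 2 groups differed in a large part of the transcriptome. Of 12159 genes tested, 3593 (29.6%) passed an adjusted p under 0.05, called below: 1630 (13.4%) were higher and 1963 (16.1%) lower on arrays labelled ONECUT2 shRNA. Most of the differences were small: 799 called genes differed by at least 2-fold, 459 of them higher and 340 lower, and 107 by at least 4-fold. The median difference over all genes tested was -0.03, and the median SE was 0.15. The arrays of the groups did not overlap for 98.0% of called genes and 53.6% of all genes tested. Fitted on the 12 arrays of 22Rv1 cells alone the model called 5713 genes, and leaving out 1 of the 6 arrays left 2761 to 2998. By probe set, 6594 of 24871 (26.5%) were called. Of 1613 called genes with more than 1 probe set tested, 50 had probe sets called in both directions. Some genes named below had probe sets that were tested but not called. Among them, SLC30A4, HOXB13, IFIH1, NID1, SNAP25, CCNA2, BAX, SESN2, ATP11A and AGO1 each had 1 of 2, and IDI1 2 of 4.

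Each group was also set against the 22Rv1 control, in comparisons that share arrays with the one above and with each other. The arrays labelled ONECUT2 shRNA differed from the control at 542 genes (4.46%), 286 higher and 256 lower. Those labelled scramble differed from it at 2659 genes (21.9%), 1516 higher and 1143 lower. The difference between these counts was not tested.

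**Figure D2:**
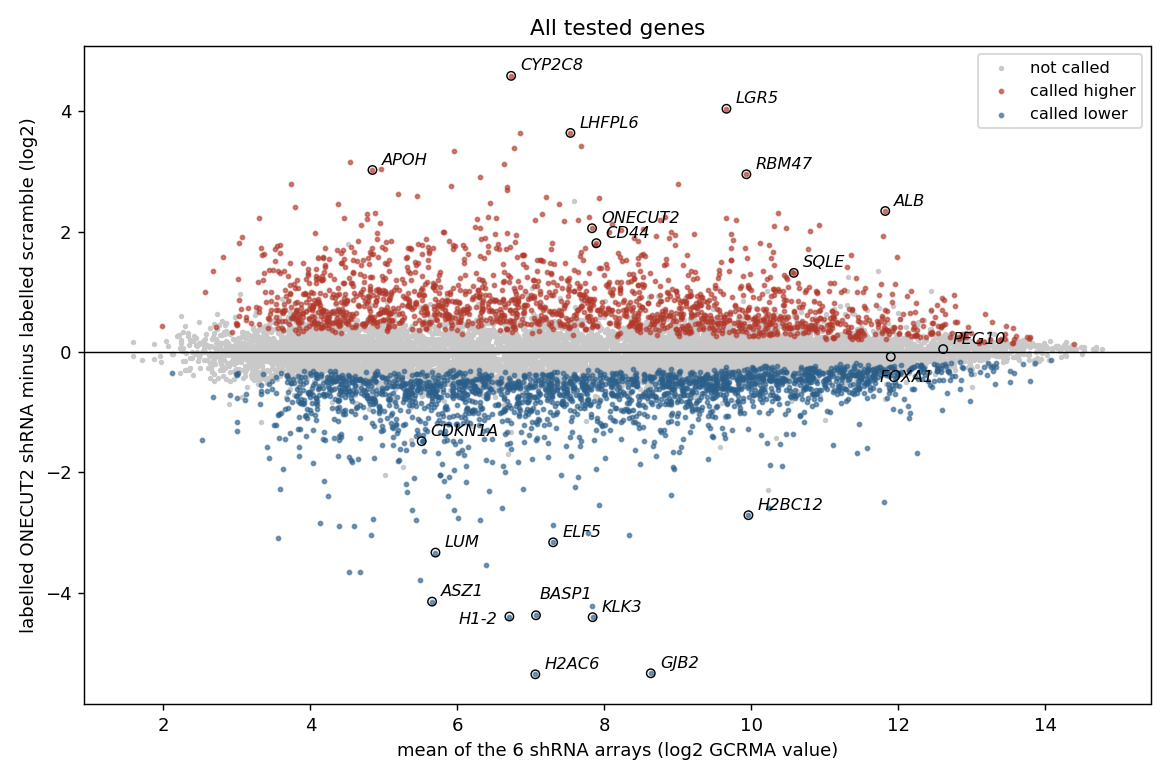
Difference between arrays labelled ONECUT2 shRNA and arrays labelled scramble (log2, vertical axis) against the mean of the 6 arrays (log2, horizontal axis) for each of the 12159 genes tested; colours mark the 1630 called higher and the 1963 called lower. CYP2C8 and LGR5 lie at the top, H2AC6, GJB2, H1-2, BASP1 and KLK3 at the bottom.

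The 15 largest rises were led by CYP2C8, a cytochrome P450 of the liver. It read 8.92, 9.08 and 9.07 on arrays labelled ONECUT2 shRNA, against 4.36, 4.57 and 4.39 on arrays labelled scramble and 8.78, 8.31 and 8.58 in control cells. That is a 24-fold higher level than on arrays labelled scramble (log2 4.59 ± 0.21 SE, adjusted p = 2.41e-10), with all control arrays near the group labelled ONECUT2 shRNA. LGR5, the R-spondin receptor that marks intestinal stem cells, read 11.51, 11.72 and 11.82 against 7.67, 7.53 and 7.73, and 11.05, 10.67 and 11.19 in control cells. Its difference was 16.4-fold (log2 4.04 ± 0.21 SE, adjusted p = 7.69e-10). RBM47, an RNA-binding cofactor of messenger RNA editing, read 11.52, 11.30 and 11.41 against 8.35, 8.70 and 8.32 (log2 2.95 ± 0.13 SE, adjusted p = 1.90e-10), and 11.47, 11.48 and 11.52 in control cells.

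The other large rises were of varied function. CDH6, a cadherin, read 9.23, 9.49 and 9.43 on arrays labelled ONECUT2 shRNA and 6.18, 6.08 and 5.65 on arrays labelled scramble, a 10.6-fold difference. ADRA2A, the alpha-2A adrenergic receptor, read 8.82, 8.59 and 8.59 against 5.03, 4.79 and 5.28, a 12.4-fold difference. CHL1, a neural adhesion molecule, read 6.43, 6.80 and 6.19 against 3.47, 3.26 and 3.58. All of its arrays labelled scramble were under the filter value, so it was at least 5.57-fold higher (adjusted p = 1.02e-09). DDC, which makes dopamine and serotonin from their amino acid precursors, read 7.68, 7.56 and 7.62 against 4.06, 4.40 and 4.41, a 10.1-fold difference. KLK11, a kallikrein protease, read 8.65, 8.45 and 8.28 against 5.21, 5.28 and 4.73, a 10.5-fold difference in the opposite direction to that of KLK3 below.

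The glucuronosyltransferase UGT2B4 was at least 4.32-fold higher (adjusted p = 4.24e-07); its family holds near-identical copies that probes may share. RASGRP2, an exchange factor for Rap proteins, was 7.49-fold higher, ASB9, an adaptor of ubiquitin ligases, 6.94-fold and SLC68A1 8.68-fold. LHFPL6 and ATP11A were the 2 of these genes furthest above the control on arrays labelled ONECUT2 shRNA. LHFPL6, a tetraspan membrane protein, read 9.45, 9.24 and 9.38 on them, against 5.43, 5.67 and 6.05 on arrays labelled scramble and 7.08, 6.38 and 7.03 in control cells. ATP11A, a phospholipid flippase, read 5.15, 5.13 and 5.10 against 2.18, 2.01 and 2.84, and 2.08, 2.81 and 2.87 in control cells, and was at least 2.19-fold higher than on arrays labelled scramble. Of the 15 genes, 5 were called higher and none lower on arrays labelled ONECUT2 shRNA against the control, with 10 not called; 14 were called lower on arrays labelled scramble against the control, with 1, ATP11A, not called. These comparisons share arrays with the one that ranked the genes. Over all genes they called 4.46% and 21.9% in either direction.

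**Figure D3:**
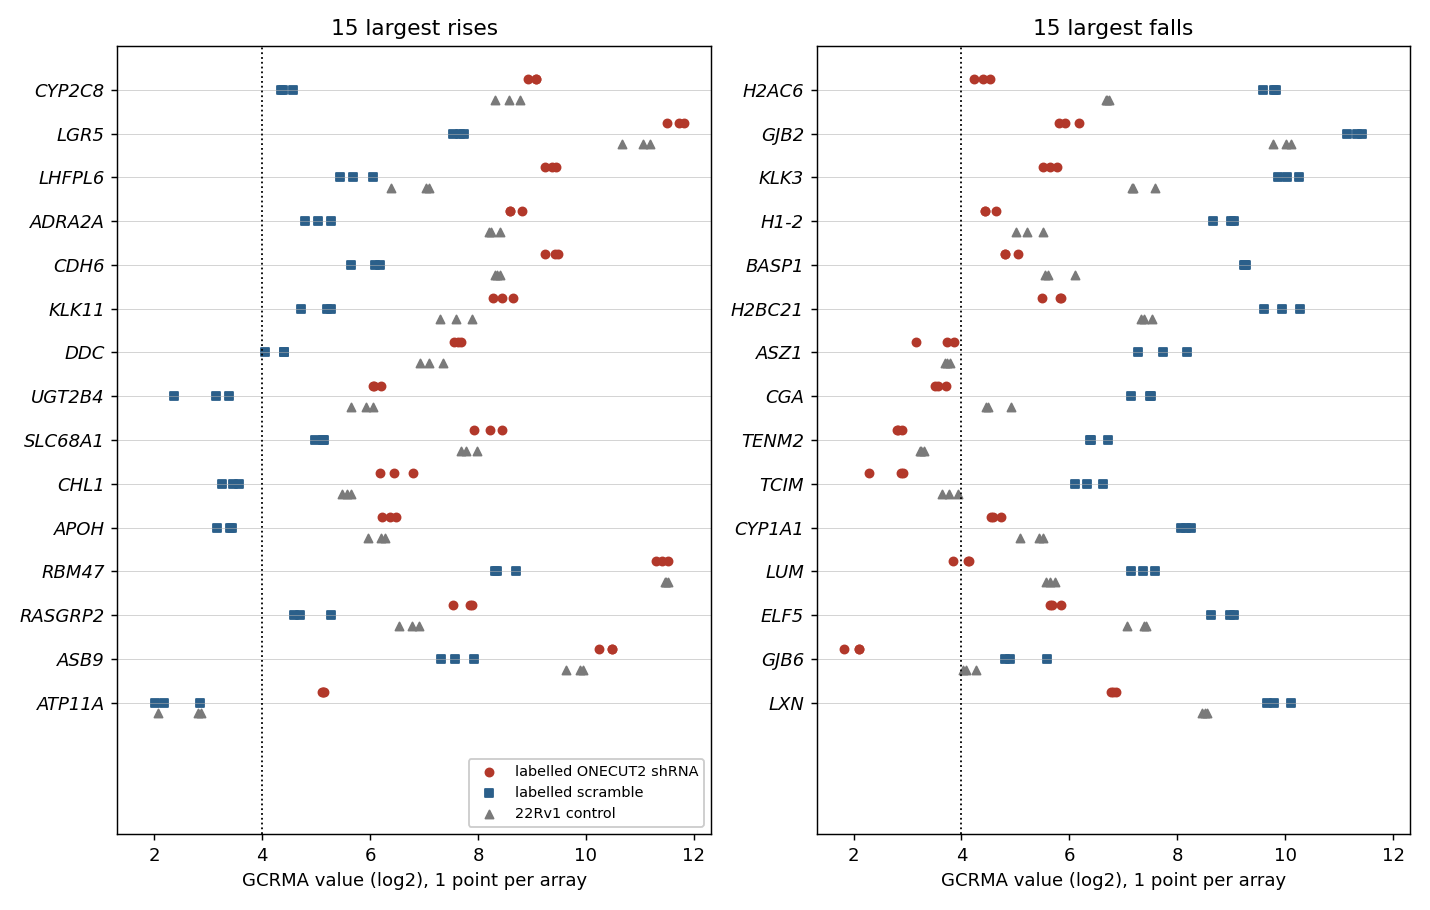
GCRMA values (log2, horizontal axis) on each array for the 15 largest rises (left) and the 15 largest falls (right) on arrays labelled ONECUT2 shRNA against arrays labelled scramble, with 22Rv1 control arrays below them; the dotted line is the filter value of 4. In the left panel most control arrays lie near those labelled ONECUT2 shRNA, and in the right panel most lie between the groups.

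Several genes of the liver lineage were higher on arrays labelled ONECUT2 shRNA. Of 15 members of the list of HNF, gut and liver genes tested, 6 were called higher and none lower by limma (7 and 0 at an unadjusted p under 0.05; background 13.4% higher, 16.1% lower), with a median difference of 0.36 against -0.03 over all genes tested. The differences were 11 positive and 4 negative, down to -1.70 for AGR2, a secretory pathway protein that did not pass the test (adjusted p = 0.141). APOH, a plasma apolipoprotein made by hepatocytes, read 6.48, 6.36 and 6.23 on arrays labelled ONECUT2 shRNA, against 3.44, 3.15 and 3.41 on arrays labelled scramble and 6.28, 6.21 and 5.96 in control cells, at least 5.12-fold higher than on arrays labelled scramble (adjusted p = 2.41e-10). ALB, the gene of serum albumin, read 12.86, 13.12 and 13.00 against 10.86, 10.50 and 10.59, and 12.81, 12.60 and 12.85 in control cells, a 5.07-fold difference (log2 2.34 ± 0.15 SE, adjusted p = 9.67e-09). Its 3 probe sets tested were all called higher. A1CF, a cofactor of apolipoprotein B messenger RNA editing, read 8.31, 8.29 and 8.87 against 5.76, 6.17 and 5.80 (log2 2.58 ± 0.18 SE, adjusted p = 2.56e-08). HNF4G, a nuclear receptor of gut and liver, read 9.34, 9.39 and 9.42 against 7.33, 7.36 and 7.94 (log2 1.84 ± 0.18 SE, adjusted p = 1.38e-06). In all 4 genes, which were named by p, the 3 arrays labelled ONECUT2 shRNA lay above the 3 labelled scramble. The groups likewise did not overlap for 98.0% of all called genes. Against the 22Rv1 control, 4 list members were called lower on arrays labelled scramble (background 21.9% in either direction). None was called in either direction on arrays labelled ONECUT2 shRNA (background 4.46%).

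The promoters of both plasma protein genes are shown because they hold letters of a motif bound by a hepatocyte nuclear factor. They run from 250 bases before the RefSeq start to 50 bases after it on GRCh38.p14; capitals mark the HNF1 half-site GTTAAT on either strand (ATTAAC where it lies on the opposite one). APOH is at chr17:66229366-66229665 on the minus strand, and ALB at chr4:73404037-73404336 on the plus strand.
APOH: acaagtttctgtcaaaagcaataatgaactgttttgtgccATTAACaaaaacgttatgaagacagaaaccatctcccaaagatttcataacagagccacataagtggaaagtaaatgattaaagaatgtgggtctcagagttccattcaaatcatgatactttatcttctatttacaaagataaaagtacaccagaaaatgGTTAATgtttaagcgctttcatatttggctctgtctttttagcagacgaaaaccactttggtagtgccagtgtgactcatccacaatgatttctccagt
ALB: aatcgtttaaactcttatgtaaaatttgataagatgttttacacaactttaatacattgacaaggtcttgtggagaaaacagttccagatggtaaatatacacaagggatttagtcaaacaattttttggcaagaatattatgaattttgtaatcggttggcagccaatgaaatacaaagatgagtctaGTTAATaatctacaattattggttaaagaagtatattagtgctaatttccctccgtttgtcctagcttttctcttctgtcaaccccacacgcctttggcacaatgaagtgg
APOH held the half-site 49 and, on the opposite strand, 210 bases before the start, and ALB held it 61 bases before. It was present in 3 of 9 list members with a promoter in the table (33.3%) and in 3.60% of the 9977 tested genes matched. Sequence matches are a description and show no binding.

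Sterol and fatty acid synthesis genes were higher together on arrays labelled ONECUT2 shRNA. Of 18 members tested, 14 were called higher and none lower by limma (16 and 0 at an unadjusted p under 0.05; background 13.4% higher), and all 18 differences were positive, from 0.14 to 1.93, with a median of 1.01 against -0.03 over all genes. IDI1, which interconverts the isoprenoid precursors, read 11.22, 11.39 and 11.08 on arrays labelled ONECUT2 shRNA and 10.39, 10.31 and 10.00 on arrays labelled scramble (log2 1.00 ± 0.10 SE, adjusted p = 2.97e-06). SQLE, the squalene epoxidase, read 11.20, 11.24 and 11.26 against 9.91, 9.91 and 9.95 (log2 1.31 ± 0.19 SE, adjusted p = 7.66e-05). LSS, which closes the sterol rings, read 11.07, 11.38 and 10.83 against 9.96, 10.02 and 9.67 (log2 1.21 ± 0.17 SE, adjusted p = 7.02e-05). DHCR7, which catalyses the last step to cholesterol, read 10.54, 10.63 and 10.33 against 9.36, 9.43 and 9.47 (log2 1.08 ± 0.13 SE, adjusted p = 1.65e-05). The groups did not overlap in these 4 genes, which were named by p, as for 98.0% of all called genes.

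Of the members outside the naming rule, SCD and HMGCS1 were picked after their values were seen, as the 2 largest differences. SCD, the stearoyl-CoA desaturase, read 12.70, 12.88 and 12.69 against 10.74, 10.80 and 10.94 (log2 1.93 ± 0.39 SE, adjusted p = 0.0014). HMGCS1, which makes the precursor of mevalonate, read 12.10, 12.10 and 12.30 against 10.54, 10.30 and 10.82 (log2 1.61 ± 0.24 SE, adjusted p = 0.000107). Control arrays lay between the groups in both, at 11.87 to 11.94 for SCD and 11.13 to 11.40 for HMGCS1. Against the 22Rv1 control 9 members were called higher on arrays labelled ONECUT2 shRNA and 3 lower on arrays labelled scramble, with medians of 0.63 and -0.29. The backgrounds of these comparisons were 4.46% and 21.9% in either direction.

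Genes of zinc handling changed in both directions. Of 13 tested, 7 were called higher and 3 lower (background 29.6% in either direction), with a median of 0.54. The metallothioneins, small proteins that bind zinc and copper, were on the higher side. MT1G read 9.06, 8.98 and 8.92 on arrays labelled ONECUT2 shRNA, against 7.70, 7.47 and 7.30 on arrays labelled scramble and 9.09, 9.11 and 9.06 in control cells (log2 1.5 ± 0.22 SE against scramble, adjusted p = 9.01e-05). MT1H read 10.23, 10.61 and 10.25 against 9.19, 9.01 and 8.87 (log2 1.34 ± 0.21 SE, adjusted p = 0.000144). MT1X, chosen after its values were seen for its promoter, read 10.77, 10.85 and 11.02 against 9.97, 9.78 and 9.84 (log2 1.02 ± 0.20 SE, adjusted p = 0.00131). Metallothionein genes are near-identical copies, so their probe sets may share signal and are not separate evidence. On the lower side, SLC30A4, a zinc exporter, read 4.84, 4.87 and 4.23 against 7.06, 7.25 and 7.49 (log2 -2.62 ± 0.24 SE, adjusted p = 7.10e-07), and 5.33, 5.26 and 5.08 in control cells. SLC39A6, a zinc importer, was called 0.32 lower, but its probe sets disagreed, with 1 called higher and 3 lower.

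The MT1X promoter, chr16:56682220-56682519 on the plus strand of GRCh38.p14, is shown because it holds the letters TGCNCNCG, which include the core of the metal response element, more than once; capitals mark them on either strand.
MT1X: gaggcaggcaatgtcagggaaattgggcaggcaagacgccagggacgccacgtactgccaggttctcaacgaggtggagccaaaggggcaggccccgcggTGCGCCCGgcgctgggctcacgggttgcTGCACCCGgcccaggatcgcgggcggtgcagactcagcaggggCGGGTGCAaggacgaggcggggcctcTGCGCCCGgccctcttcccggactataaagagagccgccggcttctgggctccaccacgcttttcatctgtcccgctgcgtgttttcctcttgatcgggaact
Matches began 150, 122, 79 (opposite strand) and 53 bases before the start. The core was found in 6 of 9 promoters of the list (66.7%) and in 25.6% of promoters of tested genes.

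Of 15 neuronal and axon genes tested 7 were called higher and 1 lower, and of 16 neuroendocrine markers 6 were called higher and 2 lower (background 13.4% higher, 16.1% lower). The neuronal differences were 8 positive and 7 negative, from -1.78 to 2.23 with a median of 0.14, and the neuroendocrine ones 13 positive and 3 negative, with a median of 0.46. The lower neuronal call was lost without array 1 labelled ONECUT2 shRNA or array 3 labelled scramble, and of the lower neuroendocrine calls 1 was left without arrays 1 or 2 labelled ONECUT2 shRNA or array 3 labelled scramble and 0 without array 1 labelled scramble. NEFL, a neurofilament subunit, read 4.35, 4.74 and 4.17 on arrays labelled ONECUT2 shRNA and 2.26, 2.16 and 2.16 on arrays labelled scramble, at least 1.34-fold higher (adjusted p = 1.22e-05). Of its 3 probe sets tested, 1 was called higher and 2 were not called. GPM6A, a neuronal membrane glycoprotein, read 10.06, 9.78 and 9.74 against 7.24, 7.23 and 8.53 (log2 2.19 ± 0.30 SE, adjusted p = 4.40e-05), and 10.16, 9.84 and 10.30 in control cells. EPHA7, an ephrin receptor, read 10.96, 11.12 and 10.98 against 9.21, 9.10 and 9.31 (log2 1.81 ± 0.31 SE, adjusted p = 0.000362). L1CAM, an axonal adhesion molecule, was at least 2.36-fold higher (adjusted p = 1.67e-06).

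CHGA, the granule protein chromogranin A, read 5.78, 5.80 and 5.52 against 4.05, 4.04 and 3.84, and 4.88, 5.14 and 5.05 in control cells (log2 1.73 ± 0.29 SE, adjusted p = 0.000256). DLL3, a Notch ligand found on neuroendocrine tumours, read 6.03, 5.67 and 5.42 against 4.08, 4.37 and 3.98 (log2 1.57 ± 0.22 SE, adjusted p = 6.88e-05). SNAP25, a part of the vesicle fusion machinery, was 0.70 ± 0.17 (SE) higher (adjusted p = 0.0058). PEG10, a retrotransposon-derived gene active in neuroendocrine prostate carcinoma, read 12.63, 12.66 and 12.62 against 12.53, 12.48 and 12.75 and did not pass the test (log2 0.05 ± 0.25 SE, adjusted p = 0.914). These values are of its brightest probe set. Of the 2 PEG10 probe sets tested, 1 was called higher and 1 was not called.

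**Figure D4:**
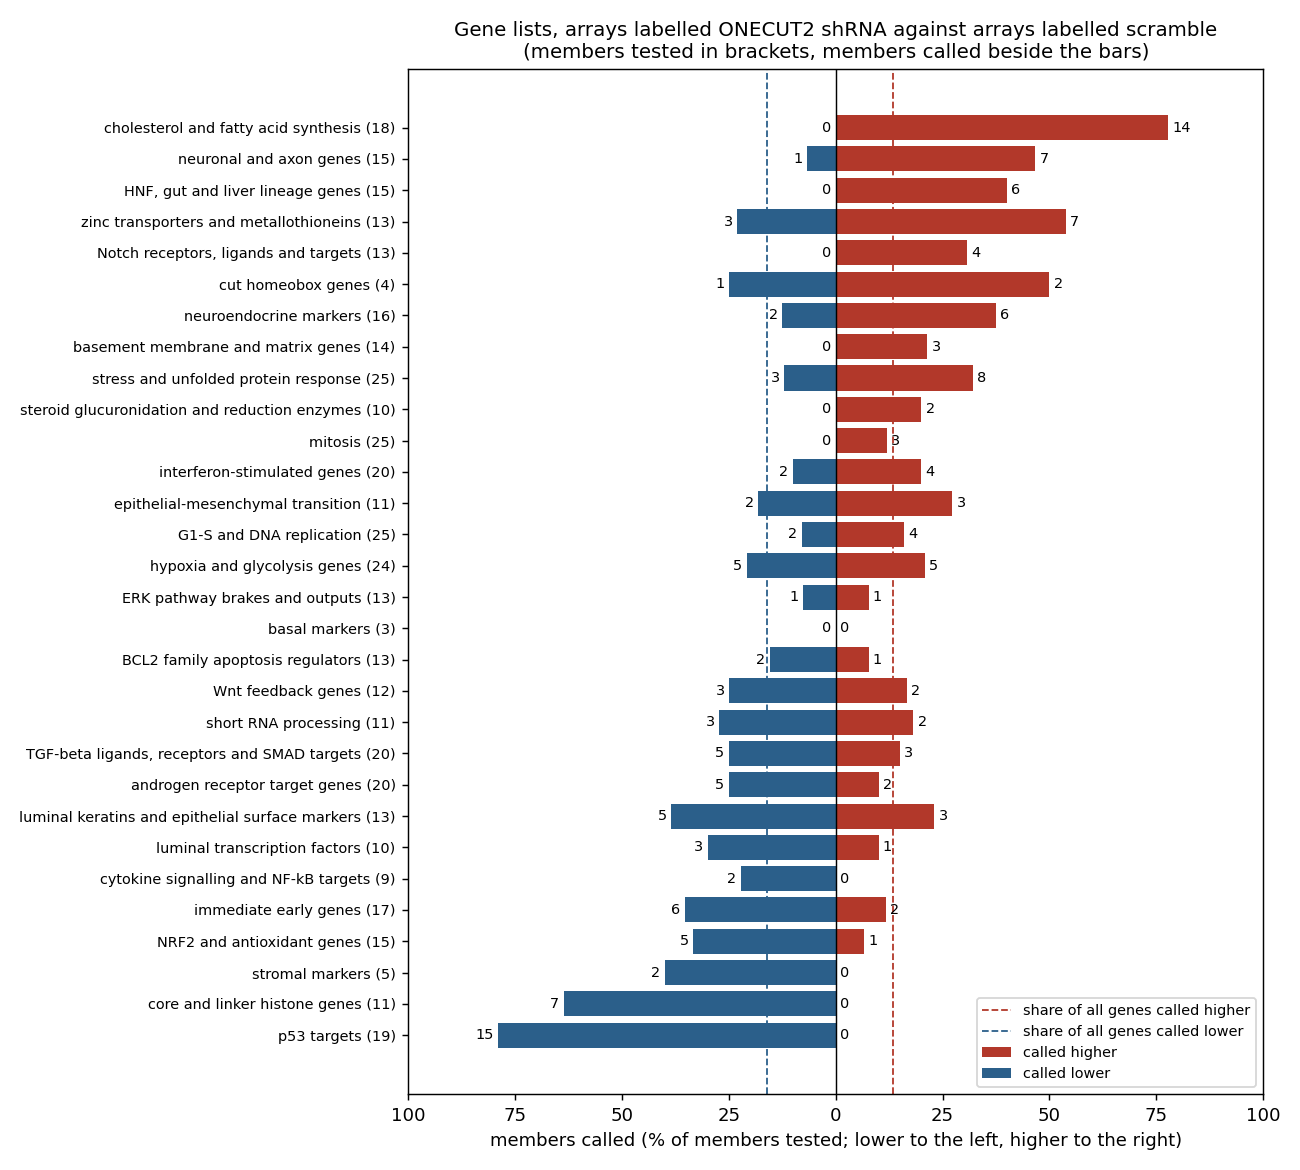
Percent of tested members of each gene list called higher (to the right) or lower (to the left) on arrays labelled ONECUT2 shRNA against arrays labelled scramble, with the counts beside the bars; dashed lines are the shares among all genes tested, 13.4% and 16.1%. Cholesterol genes, with 14 of 18 higher, and p53 targets, with 15 of 19 lower, have the longest bars.

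The largest falls were led by histone genes. Of 11 core and linker histone genes tested, 7 were called lower and none higher by limma (7 and 0 at an unadjusted p under 0.05; background 16.1% lower), and all 11 differences were negative, with a median of -1.75. These genes package DNA, and most are expressed in S phase as transcripts without a poly(A) tail. H2AC6 read 4.53, 4.39 and 4.23 on arrays labelled ONECUT2 shRNA, against 9.79, 9.59 and 9.83 on arrays labelled scramble and 6.74, 6.71 and 6.69 in control cells, which is 40.9-fold lower than on arrays labelled scramble (log2 -5.36 ± 0.13 SE, adjusted p = 1.55e-13). The linker histone H1-2 read 4.44, 4.64 and 4.45 against 9.0, 9.06 and 8.66, and 5.22, 5.51 and 5.02 in control cells (log2 -4.40 ± 0.14 SE, adjusted p = 4.28e-12). H2BC21 read 5.82, 5.84 and 5.49 against 10.27, 9.95 and 9.61, and 7.39, 7.53 and 7.33 in control cells (log2 -4.22 ± 0.15 SE, adjusted p = 1.17e-11). H2BC12 read 8.74, 8.73 and 8.35 against 11.45, 11.28 and 11.22, and 9.62, 9.63 and 9.44 in control cells (log2 -2.71 ± 0.11 SE, adjusted p = 4.50e-11).

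In each of these 4 genes the control arrays lay between the groups: all 4 were called lower on arrays labelled ONECUT2 shRNA and higher on arrays labelled scramble, each against the control. Over the list, 4 were called lower on arrays labelled ONECUT2 shRNA against the control (background 4.46% in either direction). On arrays labelled scramble 8 were called higher against it (background 21.9% in either direction). The 4 members not called against scramble include the variant histones H2AX and H2AZ1, at -0.28 (adjusted p = 0.275) and -0.08 (adjusted p = 0.415). Histone genes are a multigene family, so probe sets may share signal. The platform's ribosomal RNA control probe set, another transcript without a poly(A) tail, ran the other way: its 5′ part averaged 9.17 ± 0.43 on arrays labelled ONECUT2 shRNA and 7.47 ± 0.19 on arrays labelled scramble (SD, n = 3 each; exact permutation test, two-sided p = 0.1, the smallest that 3 against 3 allows), and 8.93 in control cells. Its part in the histone result was not tested.

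The promoters of both H2B genes are shown because they hold the octamer ATTTGCAT, in capitals, the letters bound by octamer factors in H2B promoters. H2BC21 is at chr1:149886633-149886932 and H2BC12 at chr6:27146809-27147108, both on the minus strand of GRCh38.p14.
H2BC21: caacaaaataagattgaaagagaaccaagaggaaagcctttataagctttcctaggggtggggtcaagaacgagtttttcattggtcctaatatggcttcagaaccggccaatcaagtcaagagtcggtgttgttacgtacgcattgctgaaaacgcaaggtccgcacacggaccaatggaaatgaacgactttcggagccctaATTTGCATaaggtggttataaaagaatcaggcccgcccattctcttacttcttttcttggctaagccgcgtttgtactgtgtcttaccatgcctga
H2BC12: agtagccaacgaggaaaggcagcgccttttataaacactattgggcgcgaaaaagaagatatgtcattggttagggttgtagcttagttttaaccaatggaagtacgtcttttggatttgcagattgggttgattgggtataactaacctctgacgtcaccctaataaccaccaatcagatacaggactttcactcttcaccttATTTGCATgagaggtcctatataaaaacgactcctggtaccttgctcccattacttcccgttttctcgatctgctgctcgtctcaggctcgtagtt
In both, the octamer began 46 bases before the start. It was found on either strand in 5 of 11 promoters of the list (45.5%) and in 1.27% of those of tested genes.

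Outside the histones, GJB2, a connexin of gap junctions, read 6.17, 5.92 and 5.80 on arrays labelled ONECUT2 shRNA, against 11.34, 11.15 and 11.42 on arrays labelled scramble and 10.11, 9.77 and 10.01 in control cells, 40.5-fold lower than on arrays labelled scramble (log2 -5.34 ± 0.16 SE, adjusted p = 1.25e-12). Against the control GJB2 was 4.0 lower on arrays labelled ONECUT2 shRNA (adjusted p = 2.37e-10) and 1.34 higher on arrays labelled scramble (adjusted p = 1.66e-05). The neighbouring connexin gene GJB6 was at least 2.14-fold lower (adjusted p = 8.87e-10). BASP1, a membrane-bound growth cone protein, read 4.80, 5.04 and 4.81 against 9.25, 9.24 and 9.28, and 6.11, 5.54 and 5.60 in control cells (log2 -4.37 ± 0.20 SE, adjusted p = 2.41e-10). CYP1A1, the classical target of the aryl hydrocarbon receptor, read 4.55, 4.59 and 4.73 against 8.25, 8.16 and 8.07, and 5.43, 5.51 and 5.09 in control cells (log2 -3.54 ± 0.21 SE, adjusted p = 5.00e-09).

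For ASZ1 and TENM2 the control arrays, like those labelled ONECUT2 shRNA, read under 4. ASZ1, a germ-cell protein, read 3.15, 3.87 and 3.73 on arrays labelled ONECUT2 shRNA, against 7.74, 7.27 and 8.18 on arrays labelled scramble and 3.70, 3.78 and 3.73 in control cells, at least 13.3-fold lower (adjusted p = 5.43e-08). TENM2, a teneurin adhesion receptor, read 2.82, 2.81 and 2.90 against 6.71, 6.41 and 6.38, and 3.24, 3.25 and 3.31 in control cells, at least 5.66-fold lower (adjusted p = 2.41e-10). CGA, the common subunit of the glycoprotein hormones, read 3.71, 3.57 and 3.52 against 7.49, 7.51 and 7.13, and 4.48, 4.45 and 4.91 in control cells, at least 10.4-fold lower (adjusted p = 1.13e-10). TCIM read 2.92, 2.88 and 2.29 against 6.32, 6.11 and 6.62, and 3.94, 3.65 and 3.77 in control cells, at least 5.10-fold lower (adjusted p = 5.47e-06).

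LUM, the matrix proteoglycan lumican and 1 of the stromal markers, read 4.15, 4.12 and 3.84 against 7.59, 7.15 and 7.36, and 5.64, 5.58 and 5.74 in control cells (log2 -3.33 ± 0.16 SE, adjusted p = 4.45e-10). The stromal marker list as a whole had 2 of 5 tested called lower (background 16.1%). Its summed level over the 5 defining markers was 7.80 to 8.35 on arrays labelled ONECUT2 shRNA, 8.59 to 8.91 on arrays labelled scramble and 8.0 to 8.20 in control cells. COL1A2 and PDGFRB stayed under 4 on every array; the part of stromal markers in these results was not tested. The other stromal call, ACTA2, was at least 1.20-fold lower. ELF5, an epithelial ETS factor, was 8.96-fold lower and LXN, a carboxypeptidase inhibitor, 8.21-fold lower. All 15 of the largest falls were called higher on arrays labelled scramble against the control, and 10 were called lower on arrays labelled ONECUT2 shRNA against it, in comparisons that share arrays with the ranking. Over all genes these comparisons called 21.9% and 4.46% in either direction.

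Targets of p53 were lower on arrays labelled ONECUT2 shRNA. Of 19 tested, 15 were called lower and none higher by limma (1 higher at an unadjusted p under 0.05; background 16.1% lower), with a median of -0.73. CDKN1A, the p21 inhibitor of cyclin-dependent kinases, read 4.96, 4.83 and 4.53 on arrays labelled ONECUT2 shRNA, against 6.21, 6.31 and 6.25 on arrays labelled scramble and 5.83, 6.03 and 5.99 in control cells (log2 -1.48 ± 0.14 SE against scramble, adjusted p = 7.75e-07). TP53INP1, a stress-induced nuclear protein, read 8.87, 9.01 and 8.91 against 10.34, 10.43 and 10.29, and 10.06, 9.79 and 9.88 in control cells (log2 -1.42 ± 0.13 SE, adjusted p = 4.80e-07). SPATA18, which acts in mitochondrial quality control, read 6.50, 6.41 and 6.26 against 8.40, 8.22 and 8.71, and 7.49, 7.57 and 7.96 in control cells (log2 -2.05 ± 0.22 SE, adjusted p = 3.95e-06). TIGAR, a regulator of glycolysis, read 8.51, 8.56 and 8.69 against 9.36, 9.17 and 9.41 (log2 -0.73 ± 0.10 SE, adjusted p = 7.18e-05).

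The 4 members not called were MDM2, the p53 ubiquitin ligase, at 0.34 (adjusted p = 0.123), GDF15 at -0.03 (adjusted p = 0.931), TP53I3 at 0.00 (adjusted p = 0.99) and POLH at -0.35 (adjusted p = 0.134). The call of BAX, at -0.64 (adjusted p = 0.0299), was lost without arrays 1 or 3 labelled ONECUT2 shRNA or arrays 2 or 3 labelled scramble (-0.55 to -0.60). Against the 22Rv1 control, 10 members were called lower and none higher on arrays labelled ONECUT2 shRNA (background 4.46% in either direction). On arrays labelled scramble 5 were called higher and 1 lower against it (background 21.9% in either direction). The list medians of these comparisons were -0.50 and 0.22.

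**Figure D5:**
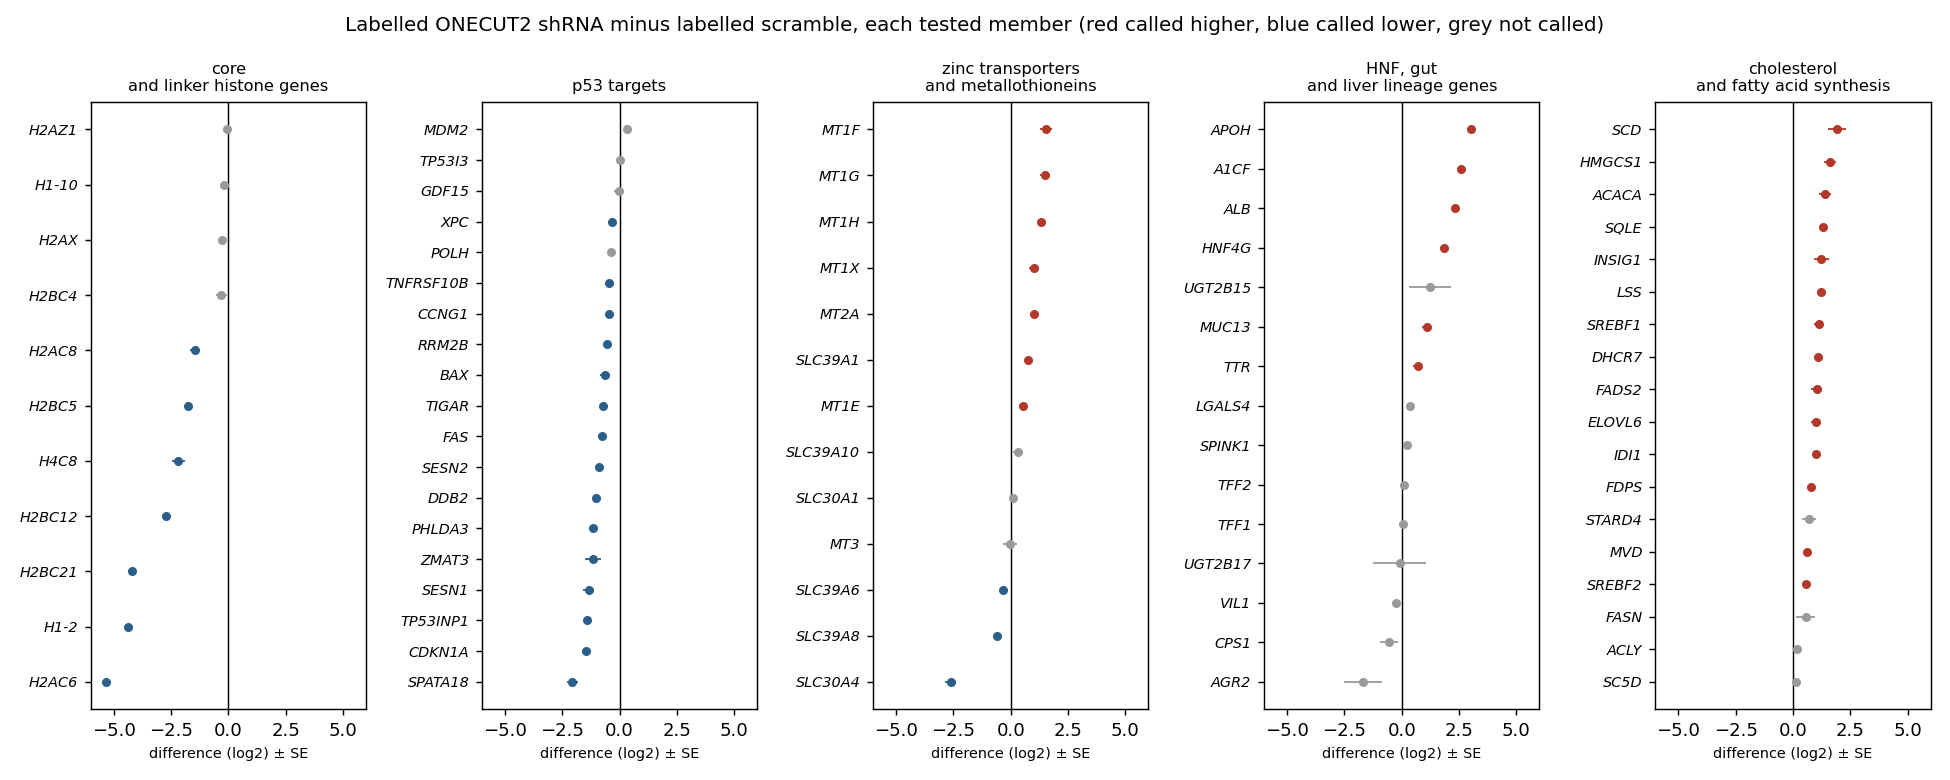
Difference between arrays labelled ONECUT2 shRNA and arrays labelled scramble (log2 ± SE, horizontal axis) for each tested member of 5 lists; red marks called higher, blue called lower and grey not called. Histone genes spread down to -5.36 while all 18 cholesterol genes lie above 0.

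KLK3, the gene of prostate-specific antigen and a classical androgen receptor target, was 21.2-fold lower on arrays labelled ONECUT2 shRNA. It read 5.51, 5.65 and 5.76 there, against 10.25, 10.03 and 9.86 on arrays labelled scramble and 7.59, 7.19 and 7.17 in control cells (log2 -4.41 ± 0.67 SE against scramble, adjusted p = 0.000165). Its SE is wide for arrays that lie this close together because the 6 groups of the series share 1 estimate of the spread. Of its 3 probe sets tested, 2 were called lower. Of 20 androgen receptor target genes tested, 2 were called higher and 5 lower (background 13.4% higher, 16.1% lower), with a median of -0.22. The lower calls were 9 in the fit on only 22Rv1 arrays, which called 3168 of all 12159 genes lower. They were 3 without array 3 labelled scramble. NDRG1, a stress-responsive target, was 1.04 ± 0.15 (SE) higher, at 8.04, 8.04 and 7.99 against 7.08, 7.07 and 6.79 (adjusted p = 6.02e-05). TRPS1, a GATA-type repressor, was 1.02 ± 0.24 (SE) lower (adjusted p = 0.00376).

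Luminal transcription factors showed 1 called higher and 3 lower of 10 tested (background 13.4% higher, 16.1% lower), with 2 positive and 8 negative differences. The fit on only 22Rv1 arrays called 7 lower, and 3168 of all 12159 genes lower. HOXB13, the prostate homeobox factor, read 9.34, 9.35 and 9.01 on arrays labelled ONECUT2 shRNA, 8.22, 8.34 and 8.30 on arrays labelled scramble and 9.12, 9.24 and 9.31 in control cells (log2 0.94 ± 0.17 SE, adjusted p = 0.0005). GRHL2, an epithelial grainyhead factor, read 9.61, 9.69 and 9.86 against 10.70, 10.68 and 10.85 (log2 -1.02 ± 0.21 SE, adjusted p = 0.00143). GATA2, a cofactor of the androgen receptor, read 9.01, 9.01 and 9.05 against 9.48, 9.67 and 9.60 (log2 -0.56 ± 0.11 SE, adjusted p = 0.00141). FOXA1, the pioneer factor of luminal cells, read 11.94, 11.81 and 11.83 against 11.88, 11.86 and 12.07 and did not pass the test (log2 -0.08 ± 0.50 SE, adjusted p = 0.928).

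Of 13 luminal keratins and epithelial surface markers, 3 were called higher and 5 lower (background 13.4% higher, 16.1% lower). The lower calls were 3 without array 3 labelled ONECUT2 shRNA. KRT19, a simple-epithelium keratin, read 7.83, 7.91 and 7.78 against 9.57, 9.55 and 9.61 (log2 -1.74 ± 0.13 SE, adjusted p = 6.76e-08), and 7.74, 7.89 and 7.90 in control cells. CLDN4, a tight junction protein, was 1.46 ± 0.22 (SE) lower (adjusted p = 0.000105). EPCAM, an epithelial adhesion molecule, was 0.36 ± 0.08 (SE) higher (adjusted p = 0.00376). The 3 basal markers tested, DST, S100A2 and DSC3, were not called (adjusted p = 0.364 to 0.904).

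Of 14 basement membrane and matrix genes tested 3 were called, all higher, a share under the 29.6% called over all genes. TNC, the matrix protein tenascin C, read 8.06, 8.17 and 8.21 on arrays labelled ONECUT2 shRNA, against 5.96, 5.82 and 6.09 on arrays labelled scramble and 8.51, 8.25 and 8.39 in control cells (log2 2.19 ± 0.16 SE, adjusted p = 5.74e-08). NID1, which links laminin to collagen, and LAMB1, a laminin chain, were 1.72 ± 0.38 and 1.14 ± 0.18 (SE) higher (adjusted p = 0.00253 and 0.00014). Of 11 epithelial-mesenchymal genes 3 were called higher and 2 lower (background 13.4% higher, 16.1% lower). The lower calls were 1 without array 1 labelled ONECUT2 shRNA or array 3 labelled scramble. The list did not shift in 1 direction. CD44, the hyaluronan receptor, read 8.74, 8.93 and 8.72 against 7.14, 6.59 and 7.24 (log2 1.81 ± 0.16 SE, adjusted p = 3.90e-07), and CDH2, N-cadherin, read 6.10, 6.59 and 5.90 against 4.56, 4.24 and 4.58 (log2 1.73 ± 0.17 SE, adjusted p = 1.20e-06). VIM, the intermediate filament vimentin, ran the opposite way at 6.69, 6.73 and 6.50 against 7.90, 8.05 and 7.58 (log2 -1.20 ± 0.18 SE, adjusted p = 0.000131).

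Of 20 genes of the TGF-beta list 3 were called higher and 5 lower (background, here and for the Wnt list below, 13.4% higher and 16.1% lower). Its ID genes, inhibitors of basic helix-loop-helix factors, were on the lower side. ID1 read 11.53, 11.79 and 11.62 against 12.67, 12.84 and 12.48, and 11.57, 11.82 and 11.59 in control cells. ID2 read 11.10, 10.72 and 10.50 against 12.42, 12.25 and 12.43, and ID3 read 11.50, 11.55 and 11.30 against 12.38, 12.41 and 12.39. Their differences were -1.01 ± 0.17, -1.60 ± 0.19 and -0.94 ± 0.16 (SE; adjusted p = 0.000281, 1.03e-05 and 0.000262). SMAD3, a signal transducer of the pathway, was 1.28 ± 0.16 (SE) higher (adjusted p = 2.34e-05). Besides LGR5, the Wnt feedback list had NKD2 called higher, and 3 of its 12 genes tested were called lower, among them DKK1, a secreted Wnt inhibitor, at 9.80, 9.73 and 9.81 against 10.81, 10.69 and 10.74 (log2 -0.96 ± 0.15 SE, adjusted p = 0.000134). Of 13 Notch genes 4 were called higher and none lower by limma (5 and 1 at an unadjusted p under 0.05), a share near the 29.6% called over all genes, but 2 without arrays 1 or 2 labelled ONECUT2 shRNA or array 3 labelled scramble. DLL1, a Notch ligand, read 5.22, 5.35 and 5.09 against 4.02, 3.15 and 3.88 (log2 1.54 ± 0.19 SE, adjusted p = 1.33e-05).

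Stress and signalling lists held calls in both directions. Of 17 immediate early genes 2 were called higher and 6 lower (background, here and for the NRF2 list below, 13.4% higher and 16.1% lower). Among those lower were FOSL2, an AP-1 subunit, at 4.75, 4.38 and 4.49 against 5.82, 5.78 and 5.92, and DUSP1, a MAP kinase phosphatase, at 7.27, 6.88 and 6.69 against 8.27, 8.63 and 8.19 (log2 -1.30 ± 0.13 and -1.42 ± 0.18 SE, adjusted p = 1.17e-06 and 2.40e-05). Of 15 NRF2 and antioxidant genes 1 was called higher and 5 lower, with 3 lower without arrays 2 or 3 labelled ONECUT2 shRNA or array 1 labelled scramble; the higher call, SRXN1, was lost without array 2 labelled ONECUT2 shRNA or arrays 1 or 3 labelled scramble (0.64 to 0.67). NQO1, a quinone reductase, read 8.35, 8.14 and 8.07 against 9.95, 9.97 and 9.65, and 8.15, 8.63 and 8.28 in control cells (log2 -1.67 ± 0.21 SE, adjusted p = 1.76e-05). HMOX1, heme oxygenase, read 4.23, 4.22 and 4.46 against 6.11, 6.28 and 5.91 (log2 -1.80 ± 0.34 SE, adjusted p = 0.000819).

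Of 24 hypoxia and glycolysis genes 5 were called higher and 5 lower (background, here and for the stress list below, 13.4% higher and 16.1% lower). CA12, a carbonic anhydrase, read 6.72, 6.94 and 6.86 against 5.26, 5.11 and 4.89, and ADM, the vasodilator adrenomedullin, read 4.35, 4.30 and 4.44 against 6.39, 6.26 and 6.73 (log2 1.76 ± 0.17 and -2.09 ± 0.20 SE, adjusted p = 8.97e-07 and 1.09e-06). Of 25 stress and unfolded protein genes 8 were called higher, or 5 without array 3 labelled scramble, and 3 lower. PHGDH, which starts serine synthesis, was 0.70 ± 0.10 (SE) higher (adjusted p = 4.47e-05), and SESN2, a sestrin that restrains mTOR signalling, was 0.90 below arrays labelled scramble, at 5.07, 5.09 and 4.79 against 5.95, 5.92 and 5.79 (adjusted p = 0.000633).

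Both groups are labelled as carrying a hairpin RNA, so a response common to hairpins would not show in their difference. Interferon-stimulated and short RNA processing genes were read between the groups, and each group was set against control cells. Of 20 interferon-stimulated genes 4 were called higher and 2 lower, a share near the 29.6% called over all genes, with 2 higher without array 2 labelled ONECUT2 shRNA. IFIH1, a sensor of double-stranded RNA, read 7.33, 7.63 and 7.64 on arrays labelled ONECUT2 shRNA, against 5.53, 4.90 and 5.43 on arrays labelled scramble and 6.80, 6.77 and 7.05 in control cells (log2 2.25 ± 0.28 SE, adjusted p = 1.86e-05). HERC5, the ligase for the ubiquitin-like ISG15 protein, ran the other way at 5.62, 5.17 and 5.87 against 7.45, 7.41 and 7.30, and 6.07, 6.0 and 6.03 in control cells (log2 -1.83 ± 0.16 SE, adjusted p = 3.59e-07). Against the 22Rv1 control, 0 interferon-stimulated genes were called on arrays labelled ONECUT2 shRNA (background 4.46%). On arrays labelled scramble 2 were called higher and 1 lower against it (background 21.9%). Of 11 short RNA processing genes 2 were called higher and 3 lower between the groups (background 29.6% in either direction). The lower calls were 1 without any 1 of the arrays other than array 2 labelled scramble. The higher calls were 1 without arrays 2 or 3 labelled ONECUT2 shRNA or any array labelled scramble. Against the control, 0 were called on arrays labelled ONECUT2 shRNA and 1, lower, on arrays labelled scramble. AGO1, an Argonaute protein, was 0.61 ± 0.11 (SE) higher (adjusted p = 0.000649), a call lost with the mean of its probe sets (0.19, adjusted p = 0.0771), and probe sets of its relative AGO3 were called in both directions.

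Cell cycle genes had few calls in the fit on all 18 arrays. Of 25 mitosis genes 3 were called higher and none lower, and of 25 genes of G1-S and DNA replication 4 were called higher and 2 lower, with medians of 0.07 and 0.17 (background 13.4% higher, 16.1% lower). On only the 22Rv1 arrays the fit called 2545 of all 12159 genes higher and 3168 lower. There 5 mitosis genes were called higher and 5 lower, and 12 replication genes higher and 5 lower. Leaving out any 1 array left 1 to 2 mitosis genes higher, and 1 to 3 replication genes higher with 0 to 1 lower. MKI67, the proliferation antigen, read 10.14, 10.46 and 10.22 on arrays labelled ONECUT2 shRNA and 10.38, 10.29 and 10.37 on arrays labelled scramble (log2 -0.07 ± 0.16 SE, adjusted p = 0.776). CCNA2, cyclin A, was 0.47 ± 0.09 (SE) higher (adjusted p = 0.00105). PCNA, the replication clamp, read 13.00, 13.00 and 12.76 against 12.13, 12.25 and 12.04 (log2 0.78 ± 0.22 SE, adjusted p = 0.0146), a call lost without array 3 labelled scramble (0.73, adjusted p = 0.0511). In the fit on all 18 arrays 3 of 13 BCL2 family genes and 2 of 13 ERK pathway genes were called in either direction (background 29.6%). On only 22Rv1 arrays 7 of each were called, where 5713 of all 12159 genes were called. Of 10 enzymes of steroid glucuronidation and reduction 2 were called, both higher (background 13.4%), with a median of 0.53 and differences up to 2.50; 6 were called higher on only 22Rv1 arrays. Among 9 cytokine signalling genes 2 were called lower (background 16.1%). These calls were 0 without arrays 2 or 3 labelled ONECUT2 shRNA or arrays 1 or 2 labelled scramble, and 1 without array 3 labelled scramble.

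RNA quality was read from control probe sets along single transcripts. The 3′ minus 5′ difference of beta-actin averaged 4.27 ± 0.04 on arrays labelled ONECUT2 shRNA and 3.88 ± 0.28 on arrays labelled scramble (SD, n = 3 each; exact permutation test, two-sided p = 0.1, the smallest that 3 against 3 allows), and 4.11 ± 0.41 in control cells. That of GAPDH averaged -0.62 ± 0.08 and -0.75 ± 0.12 (exact two-sided p = 0.3). Their part in the calls was not tested.

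The comparison of 22Rv1 cells with the overexpression construct against 22Rv1 control cells shares no array with the shRNA comparison. It called 7392 genes (60.8%), 36.5% of all genes higher and 24.3% lower. The control probe sets differed there too: the 3′ minus 5′ difference of beta-actin averaged 8.06 ± 0.70 in overexpressing cells and 4.11 ± 0.41 in control cells, and the 5′ ribosomal RNA probe set 5.50 ± 0.59 and 8.93 ± 0.19 (SD, n = 3 each). The part of RNA quality in the calls was not tested. Of the genes higher on arrays labelled ONECUT2 shRNA against arrays labelled scramble, 565 (34.7%) were also higher with overexpression and 556 (34.1%) lower; these are 12.7% and 18.8% of the overexpression lists. Of the genes lower on arrays labelled ONECUT2 shRNA, 1002 (51.0%) were higher with overexpression and 362 (18.4%) lower, or 22.6% and 12.3% of the overexpression lists. Among named genes CYP2C8 read 4.50, 5.03 and 4.55 in overexpressing cells and LGR5 7.94, 8.65 and 7.93, both below the control. H2AC6, at 12.24, 12 and 11.94, was above the control, and KLK3, at 4.17, 4.25 and 4.45, below it, each called against the control. ONECUT2 itself, by its brightest probe set, was called higher both on arrays labelled ONECUT2 shRNA against scramble and with overexpression against control. Its other probe sets were split with overexpression. Probe sets 230271_at and 207676_at were called higher, and 233446_at lower (log2 -0.97, limma, adjusted p = 0.0023 over probe sets). CYP2C8, LGR5 and H2AC6 differed in opposite directions in these 2 comparisons and KLK3 in the same one.

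The letters ATCAAT, a core of ONECUT binding sites, were searched on both strands of the same promoter windows. They were found in 2.55% of promoters of genes called higher on arrays labelled ONECUT2 shRNA (33 of 1294), in 3.38% of those called lower (55 of 1625) and in 3.26% of those not called. No match in these windows says nothing of binding elsewhere.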

How the data were processed

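The authors deposited log2 expression values made with GCRMA, per the submitters' processing notes; the GCRMA version and the set of arrays normalized jointly were not given in the sources used here. Of 54675 probe sets, 62 were platform controls, 41091 mapped to 1 gene symbol, 1801 to several and 11721 to none. A gene was represented by the brightest of its single-symbol probe sets (mean of 18 arrays), and tested where that exceeded 4 on at least 3 arrays. All arrays entered 1 limma 3.58.1 model (R 4.3.3) with a mean per group, 12 residual degrees of freedom, and trend and robust moderation; Benjamini-Hochberg adjustment ran over 12159 genes, or over probe sets. If a group's 3 arrays all read under 4, the fold is the other group's mean against 4, given as "at least". A summed level is the log2 of the sum of unlogged values. Tested on simulated data, the procedure missed most of the smallest changes and its share of false calls was somewhat above the threshold. Named genes are ONECUT genes, the 15 largest rises and falls among called genes whose groups did not overlap, up to 4 called members of each of 31 gene lists by p, and KLK3, FOXA1, CHGA, PEG10, HNF4G and MKI67; those of weak lists are given as counts. The comparison, lists and named genes were chosen with earlier results of these data known. Promoters are RefSeq's on GRCh38.p14, the first listed for a gene with several, and 9977 tested genes matched. Alternatives changed the arrays fitted, scaling, filter, choice of probe set, moderation and replicate block, or left out an array. No shRNA sequence was used here.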

Additional observations from a re-analysis of the deposited data

Results flagged for a closer look

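Probe sets with no gene symbol or several, which enter none of the comparisons by gene, also carried differences between the arrays labelled ONECUT2 shRNA and those labelled scramble. Of 3644 such probe sets that passed the filter on low values, 896 (24.6%) were called by limma, 463 higher and 433 lower on arrays labelled ONECUT2 shRNA. The share among all probe sets was 26.5%.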

How the results depend on the processing

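ONECUT2 stayed higher on arrays labelled ONECUT2 shRNA than on arrays labelled scramble and was called under all 16 alternatives, from 1.21 with the mean of its probe sets (adjusted p = 5.03e-07) to 2.25; leaving out 1 array gave 1.93 to 2.25. The number of genes called depended on which arrays set the spread, because the LNCaP overexpression arrays are wide apart. Against 3593 (1630 higher, 1963 lower), the 12 arrays of 22Rv1 cells called 5713 (2545 higher, 3168 lower), and the fit without the LNCaP overexpression arrays, chosen after seeing the data, called 5790 (2577 higher, 3213 lower). The 6 shRNA arrays with a replicate block called 5702 (2576 higher, 3126 lower). The replicate numbers were not taken as a pairing, since same-numbered arrays correlated at 0.108, 0.0574 and 0.322 in their deviations from the group means. Leaving out 1 array gave 2761 to 2998 calls (1256 to 1379 higher, 1443 to 1646 lower), 771 to 833 of them by at least 2-fold against 799; the mean of probe sets gave 454. Array centring gave 3552 calls, a filter at 6 gave 2949, no filter 3491, plain moderation 3539, the 6 shRNA arrays 5094 and their quantile normalization 5075. Of the 3593 genes, 1597 (44.4%) were called in every fit. With only 22Rv1 arrays the list counts that grew most were G1-S genes higher, 12 against 4, androgen receptor targets lower, 9 against 5, luminal factors lower, 7 against 3, TGF-beta genes higher, 8 against 3, steroid enzymes higher, 6 against 2, and mitosis genes lower, 5 against 0. Calls over all genes grew in that fit too, to 2545 higher against 1630 and 3168 lower against 1963. The p53 count stayed at 12 to 16 lower, cholesterol genes at 12 to 17 higher, histones at 7 to 8 lower and liver genes at 5 to 8 higher over all alternatives. Of named genes under the alternatives, 1958 values kept direction and call, 76 lost the call and 3 changed sign: AGO3 and MKI67 with the mean of probe sets (0.018, adjusted p = 0.952, and 0.10, adjusted p = 0.52), and PEG10 with 1 array left out (-0.0063 to 0.13). The causes of these losses were not tested. Where all 3 arrays of a group read under 4, the fold is a bound only. Differences of other genes that read close to 4 in a group are given as they stand, near that limit.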
